A study of Mus musculus with 2 samples.

Results

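A set of 988 open chromatin sites lay inside protein-coding sequence and away from gene starts, out of 93861 sites found in both libraries of mouse gastrocnemius muscle on chromosomes 1 to 19. A site was counted when a peak of replicate 1 overlapped a peak of replicate 2 by at least 1 bp, when its midpoint fell on a coding interval of the GENCODE M21 annotation, and when that midpoint was over 5 kb from every annotated transcript start. The sites lay in 839 genes and made up 2.22% of the shared sites over 5 kb from a start. The other sites over 5 kb from every start were 1166 in untranslated or noncoding exons, 20745 in introns and 21649 between genes.

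DNase-seq was carried out on gastrocnemius, the main calf muscle, of B6CASTF1/J male mice at an age of 10 days, in 1 group of 2 biological replicates. B6CASTF1/J mice are first-generation hybrids that carry a C57BL/6J and a CAST/EiJ copy of each autosome. No treatment or mutation is named. Each label names 3 males and both give the same donor record, and whether tissue of several animals was combined is not stated in them, so the spread between the libraries may be partly technical. Replicate 1 had 123255 peaks and replicate 2 had 150088. Promoters of 13 of 13 muscle marker genes were open in both libraries, as were those of 4 of 4 fibroblast and 4 of 4 endothelial markers, 2 of 4 Schwann cell markers, 0 of 4 macrophage markers and 0 of 4 liver markers. In a whole tissue, fewer cells with an open site and less cutting at that site per cell cannot be told apart. With a single group no conditions could be compared, and with 2 libraries no test over samples was made.

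DNase I cuts DNA most readily where nucleosomes are absent or displaced, so stretches of frequent cutting mark promoters, enhancers and insulators. Inside such a stretch a bound protein shields a few bases, which leaves a footprint of reduced cutting. Most regulatory elements lie outside protein-coding sequence, yet transcription factors also bind within exons, where the same bases then serve both the genetic code and a binding site. CTCF is a zinc finger protein that binds a long, well conserved motif at insulators and at the anchors of chromatin loops. Regions rich in the CpG dinucleotide are often free of DNA methylation and of stable nucleosomes, at gene starts and sometimes inside genes.

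The sequences of 8 sites follow, each printed from 5′ to 3′ on the coding strand of its gene in build GRCm38/mm10, with capitals for bases inside footprints of both replicates. Zfp771 and Ppp1r18 are shown as sites among the 3 highest. They lie at chr7:127254041-127254340 on the plus strand, in exon 3, and at chr17:35873881-35874040 on the plus strand, in exon 3.
Zfp771: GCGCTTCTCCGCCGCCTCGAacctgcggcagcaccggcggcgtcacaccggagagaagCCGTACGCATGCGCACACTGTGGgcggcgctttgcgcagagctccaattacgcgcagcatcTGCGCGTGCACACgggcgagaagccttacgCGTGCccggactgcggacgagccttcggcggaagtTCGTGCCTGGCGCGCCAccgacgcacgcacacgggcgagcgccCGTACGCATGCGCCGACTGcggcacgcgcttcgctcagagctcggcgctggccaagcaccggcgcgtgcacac
Ppp1r18: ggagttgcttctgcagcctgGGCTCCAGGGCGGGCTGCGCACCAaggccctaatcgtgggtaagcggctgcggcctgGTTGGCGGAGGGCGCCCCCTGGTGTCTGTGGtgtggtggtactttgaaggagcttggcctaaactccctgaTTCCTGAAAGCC
Dgki, Dglucy and Lrrk1 are shown for their CTCF core inside a footprint of both replicates, at sites among the 4 highest of that kind. They lie at chr6:37097481-37097640 on the minus strand, in exon 4 and its flanking intron, at chr12:100841321-100841500 on the plus strand, around exon 7, and at chr7:66300801-66300940 on the minus strand, around exon 12.
Dgki: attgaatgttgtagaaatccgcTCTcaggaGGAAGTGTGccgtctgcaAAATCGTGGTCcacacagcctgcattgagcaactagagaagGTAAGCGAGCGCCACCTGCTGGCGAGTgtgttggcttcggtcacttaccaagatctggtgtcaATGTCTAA
Dglucy: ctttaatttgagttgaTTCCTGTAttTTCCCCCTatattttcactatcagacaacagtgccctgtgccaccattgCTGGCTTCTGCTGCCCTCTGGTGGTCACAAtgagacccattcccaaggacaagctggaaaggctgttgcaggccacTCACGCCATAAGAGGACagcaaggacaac
Lrrk1: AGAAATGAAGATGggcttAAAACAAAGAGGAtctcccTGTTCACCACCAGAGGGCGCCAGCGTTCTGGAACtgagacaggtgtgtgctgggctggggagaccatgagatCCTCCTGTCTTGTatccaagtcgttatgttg
Dysf, Syne1 and Dst held the highest sites among genes of the muscle lists. They lie at chr6:84140021-84140180 on the plus strand, in exon 34, at chr10:5289361-5289580 on the minus strand, in exon 55, and at chr1:34218461-34218600 on the plus strand, in exon 56.
Dysf: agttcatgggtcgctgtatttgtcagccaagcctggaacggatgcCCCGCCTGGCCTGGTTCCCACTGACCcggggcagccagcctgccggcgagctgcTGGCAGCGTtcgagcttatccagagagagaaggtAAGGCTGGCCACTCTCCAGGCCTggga
Syne1: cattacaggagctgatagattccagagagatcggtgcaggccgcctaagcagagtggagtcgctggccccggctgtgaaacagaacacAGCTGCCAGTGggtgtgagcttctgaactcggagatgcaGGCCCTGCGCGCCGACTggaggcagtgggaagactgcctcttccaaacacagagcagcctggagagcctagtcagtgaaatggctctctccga
Dst: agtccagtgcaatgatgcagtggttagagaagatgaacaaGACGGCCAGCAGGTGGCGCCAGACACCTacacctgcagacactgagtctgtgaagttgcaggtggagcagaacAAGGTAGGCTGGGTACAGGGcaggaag

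The Zfp771 window was the richest in CpG of the 8, with 50 CpG dinucleotides in 300 bp and a GC content of 71%, and its footprints of both replicates covered 97 bases in 6 stretches. The Dglucy window held 1 CpG in 180 bp. Coding sequence made up 100% of the Zfp771 peak, 96.4% of the Syne1 peak and 46.9% of the Dgki peak, the rest of which was intron. The CTCF core of the Lrrk1 site, CCACCAGAGGGC, began at base 44 of the printed sequence on the coding strand, inside a footprint stretch of 34 bases. The same core stood in the Dglucy site on the opposite strand, where it occupies the printed bases from 88 on. The Dgki and Dst sites shared the core CCAGCAGGTGGC, from base 100 on the opposite strand in Dgki, where it lies in the flanking intron, and from base 46 on the coding strand in Dst.

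Most of these sites were weak to moderate. Only those in Zfp771 and Nrg2 were above the upper quartile of sites within 500 bp of a start in both libraries. That quartile was 5.33 in replicate 1 and 7.48 in replicate 2. Peak values are the authors' deposited signal, scaled to library depth. The value in replicate 2 is that of the highest replicate 2 peak that overlaps the site. The median was 0.691 in replicate 1 and 0.766 in replicate 2, against 0.723 and 0.945 for the other sites over 5 kb from a start and 2.16 and 2.64 for sites within 500 bp of a start. With 1 tag (a mapped cut) per step of the deposited scale, the median coding site rested on 127 tags in replicate 1 and 131 in replicate 2, and the lowest on 29 and 20. Counting error alone gives a site at the median a 95% Poisson interval from 83.4% to 119% of its value in replicate 1 and from 83.6% to 119% in replicate 2. Of the coding sites, 14 were among the 1000 highest sites over 5 kb from a start, or 1.42% of the 988. Coding sites made up 2.22% of all 44548 sites over 5 kb from a start, so fewer were among the 1000 highest than that share would give.

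The highest site lay in the last exon of Zfp771, a zinc finger gene, with values of 9.19 in replicate 1 and 11.7 in replicate 2. Of all shared sites, 3024 had a higher mean of both values on a log scale, and 2793 of those were within 500 bp of a start. Nrg2, which encodes a neuregulin ligand of ErbB receptors, followed with 6.43 and 8.99 in its last exon. The site in the last exon of Ppp1r18, which encodes a regulatory subunit of protein phosphatase 1, had 7.77 and 7.15. Its midpoint is coding in 1 of the 6 coding transcripts of the gene that span it. Exon 32 of Epg5, an autophagy gene, had 8.10 and 5.88. Replicate 2 was the higher library at Zfp771 and Nrg2, and replicate 1 at Ppp1r18 and Epg5. The other 8 of the 12 highest sites were in Srcin1, the cadherin gene Cdh22, the collagen uptake receptor gene Mrc2, the kinesin gene Kif27, the epithelial sodium channel gene Scnn1a, Pdzd2, Fam83a and Notch3, a receptor known for its part in vascular smooth muscle. Over these 12 the values spanned 4.71 to 9.19 in replicate 1 and 4.77 to 11.7 in replicate 2. All 12 were in the stricter peak set of both libraries and had a footprint in both, 6 lay in last exons, and 5 had a CpG ratio of 0.6 or more. The lowest 3 were in Vps33a (0.190 and 0.117), a vesicle fusion gene, in Malrd1 (0.158 and 0.235) and in the enamel gene Ambn (0.250 and 0.158).

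**Figure D1:**
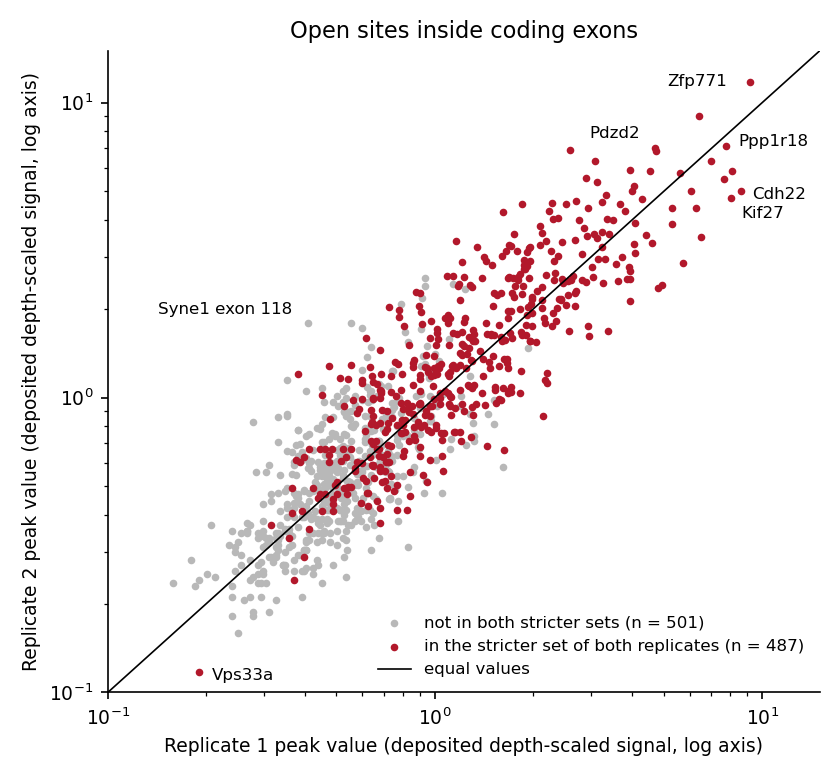
Deposited peak value of each of the 988 coding sites in replicate 2 (vertical) against replicate 1 (horizontal), both on log axes, with 487 sites found in the stricter peak set of both replicates in red, the other 501 in grey and a line for equal values. Zfp771 is the highest site at 9.19 and 11.7, and the Syne1 site in exon 118 lies farthest above the line.

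Coding sequence held more sites per base than other distal sequence, but not more than introns of the same GC content, except where GC was 65% or more. Per Mb of sequence over 5 kb from every start there were 73.2 sites in coding exons (95% Poisson interval 68.7 to 77.9, over 13.5 Mb), against 42.8 in other exons, 28.2 in introns and 20.7 between genes. Intron sequence beside coding exons was close to introns as a whole, with 31.0 sites per Mb in the 50 bp next to a coding edge and 32.6 in the next 50 bp. The GC content of the 150 bp around the midpoint had a median of 58.7% at coding sites, against 54.0% at the other sites over 5 kb from a start and 50% in coding windows without a peak.

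Site density climbed steeply with GC in every kind of sequence. Where GC was 45 to 50% there were 22.5 sites per Mb of coding exon, against 23.9 in introns. At 50 to 55% there were 67.7 (58.9 to 77.4) in coding exons, against 77.6 (75.8 to 79.4) in introns. At 55 to 60% there were 121 (107 to 136) in coding exons against 214 (209 to 220) in introns. At 60 to 65% there were 240 (211 to 272) against 402 (386 to 419). These intervals cover counting error only, and sites of 1 library are not replicates. The order was the opposite at 65% or more, with 761 (657 to 878) in coding exons against 440 (401 to 482) in introns. Other exons were near introns at 55 to 60% and 60 to 65%, with 212 and 397. At 65% or more they had 883 (659 to 1157) from 52 sites, so the higher rate there was not particular to coding exons. That uppermost class held 190 of the 988 coding sites on 1.85% of the coding bases, and 71.1% of those 190 had a CpG ratio of 0.6 or more, against 14.2% of the coding sites of lower GC. If each GC class of coding sequence had held sites at the intron rate, 1313 would have been found, so the 988 observed were 0.752 of that number. At the rates between genes the number would have been 1208, and the ratio was 0.818. The ratio to intron rates was 0.796 for the peaks of replicate 2 alone and 0.946 for those of replicate 1 alone, below 1 in both. It was 0.529 when soft-masked repeat bases were left out of both sides and 0.637 with the stricter peak sets. This comparison was chosen after the densities had been seen.

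**Figure D2:**
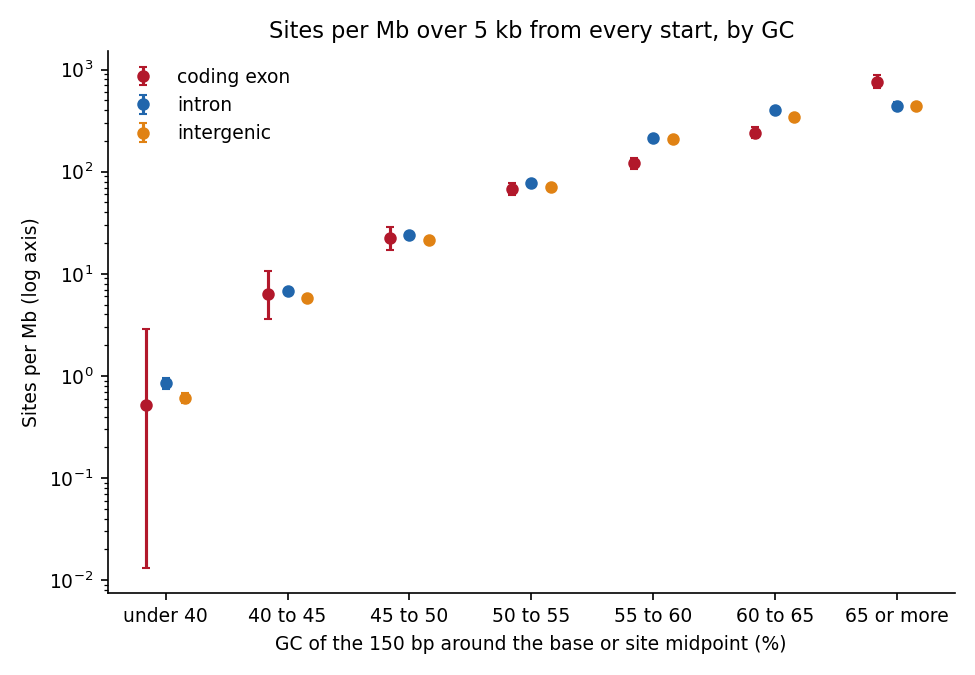
Sites per Mb (log axis) by GC content of the surrounding 150 bp, for coding exons, introns and intergenic sequence over 5 kb from every start, with bars for 95% Poisson intervals. Coding exons lie below introns from 50% to 65% GC, at 121 against 214 per Mb in the 55 to 60% class, and above them at 65% or more, at 761 against 440 per Mb.

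The coding sites were also weaker than intron sites of the same GC content. Between 60 and 65% GC the medians were 0.734 in replicate 1 and 0.757 in replicate 2 for 249 coding sites, against 0.946 and 1.28 for 2341 intron sites. At 65% or more they were 0.968 and 0.951 for coding sites, against 1.23 and 1.55 for 460 intron sites. Below 50% GC they were 0.571 and 0.775 for 75 coding sites, against 0.625 and 0.804 for introns. In each of the 5 GC classes the coding median was the lower one in both libraries.

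The coding sites were richer in CpG than other distal sites. The ratio of observed to expected CpG had a median of 0.418 at coding sites, against 0.237 at the other sites over 5 kb from a start and 0.360 in coding windows without a peak. It was 0.6 or more at 248 coding sites, or 25.1% (95% exact binomial interval 22.4 to 27.9), against 6.32% of the other sites over 5 kb, 15.2% of coding windows without a peak and 26% of all shared sites. These 248 sites had a median length of 311.5 bp of continuous listed bases, against 207.5 bp for the other coding sites, where a listed base is one in the authors' per-base file at an FDR under 0.05 and gaps up to 150 bp were joined. Of the CpG-rich sites, 50% lay in last exons, against 26.4% of the others.

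Peaks were slightly wider than at other sites, and their flanks were listed more often than those of intron sites. The median peak was 180 bp wide, against 166 bp for the other sites over 5 kb. At 200 bp before the midpoint, 19.9% of coding sites in replicate 1 and 23.6% in replicate 2 still had a listed base, against 8.89% and 17.5% of intron sites. At 1000 bp before it the shares were 6.98% and 7.29% for coding sites, against 2.71% and 3.92% for intron sites. At 1000 bp after it they were closer, at 4.15% and 5.77% against 2.80% and 4.03%. Intergenic sites had 12.1% and 21.1% at 200 bp before the midpoint. At 380 bp before it in replicate 2 they had 11.1%, against 10.9% of coding sites. Continuous openness of at least 1000 bp surrounded 40 coding sites, the longest 5129 bp. Several sites can share a stretch: 12 of the 40 were Plec peaks, in stretches of 1245 and 2484 bp.

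**Figure D3:**
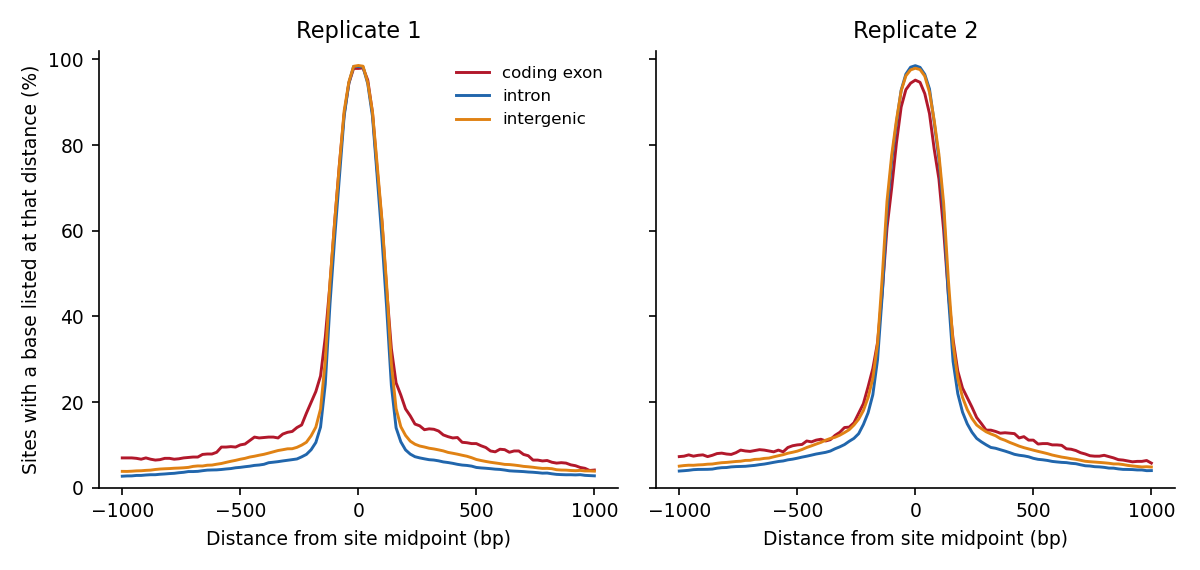
Percentage of sites with a listed base (FDR under 0.05) at each distance from the site midpoint, upstream of it to the left in chromosome order, in replicate 1 (left panel) and replicate 2 (right panel). Coding sites, intron sites and intergenic sites share a narrow peak, and in replicate 1 coding sites stay higher on the flanks, at 19.9% against 8.89% for introns at 200 bp before the midpoint.

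Long coding exons were the ones most often open. The coding bases of an exon that lie over 5 kb from every start are called a segment here. Of 79797 segments, 913, or 1.14%, held a site midpoint. Segments with a site had a median length of 211 bp, against 126 bp for all segments. Sites per Mb numbered 28.1 in segments under 100 bp, 54.0 from 100 to 150 bp, 74.3 from 150 to 200 bp and 99.1 from 200 to 500 bp, then 99.6, 90.5 and 89.2 in the 3 longer classes. At least 3000 coding bases were present in 104 segments, of which 22 held a site, or 21.2%. Of the 45 sites in these segments, 16 were Plec peaks that formed 6 separate regions, so the 89.2 per Mb leans on 1 gene. By all coding bases of the exon, also those nearer to a start, the longest with a site was in the transcriptional repressor gene Spen. It had 8020 coding bases, and its highest site had 1.67 and 2.55. Over 5 kb from every start Spen held only 3648 coding bases. Next came an exon of the microtubule protein gene Map1b with 0.702 and 0.587, and the last exon of Usf3 with 0.876 and 2.28.

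**Figure D4:**
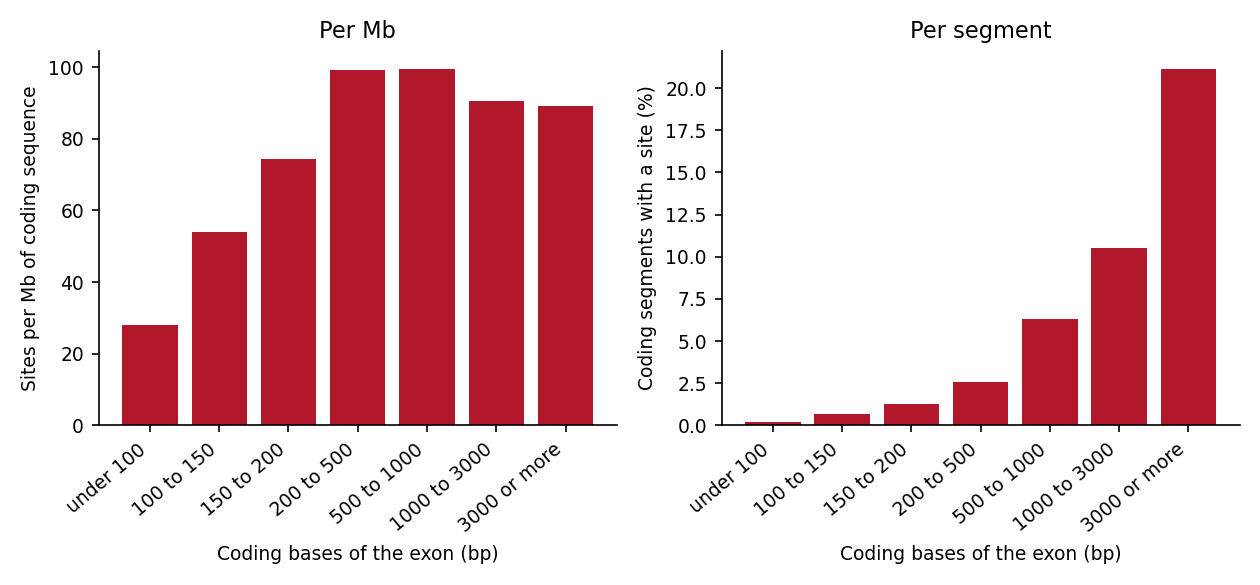
Sites per Mb of coding sequence (left) and percentage of coding segments with a site (right), by the number of coding bases of the exon that lie over 5 kb from every start. Density levels off from 200 bp on, near 99 per Mb at 200 to 500 bp, and the share of segments with a site goes on climbing to 21.2% at 3000 bp or more. In that last class, 16 of the 45 sites are Plec peaks, which form 6 separate regions.

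Within genes, 669 sites were in internal exons and 319, or 32.3%, in last exons. No site was in a first exon or a single-exon gene, which the distance rule makes unlikely. The midpoint fell on codon base 1 in 326 sites, on base 2 in 331 and on base 3 in 331. Counted from the 5′ end of all coding bases of the exon, their 5 equal parts held 130, 208, 252, 235 and 163 midpoints. The peak lay wholly in coding sequence at 456 sites, and the midpoint was coding in every coding transcript of the gene that spanned it at 883 sites, or 89.4%. Last-exon sites were CpG-rich more often than internal ones, at 38.9% against 18.5%. The distance to the nearest start had a median of 11381 bp, from 5015 to 256197 bp.

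Fewer coding sites than other distal sites held a footprint in both libraries. A footprint in both replicates was present at 773 coding sites, or 78.2% (75.5 to 80.8), against 83.4% of the other sites over 5 kb and 83% of all shared sites. With an overlap of at least 50% of each peak it was 85.9% of coding sites, against 88.9% of the others. No footprint in either library was found at 55 coding sites, or 5.57% (4.22 to 7.18), against 3.85% of the other sites over 5 kb and 4.96% of all shared sites. The coding peaks held 2224 footprints in replicate 1 and 2106 in replicate 2, with median widths of 10 and 11 bp. Of these, 84.6% and 83.8% lay wholly in coding sequence. Per 100 bases of peak there were 1.16 and 1.10 footprints in coding sites, against 1.30 and 1.39 in intron sites. The presence of a footprint followed the peak value, with 99.2% of the 247 highest coding sites having one in both libraries and 41.3% of the 247 lowest. The most footprints were at Apba1, a synaptic adaptor gene, with 11 and 9, at the forkhead factor gene Foxo6 with 9 and 11, at 2 wide peaks of Plec with 10 and 9 and with 11 and 7, and at Stat2, an interferon signalling factor, with 7 and 10. The Foxo6 peak was 620 bp wide and the Plec peaks were wider still, at 1820 and 1780 bp.

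CTCF cores were scarcer at coding sites than at other distal sites but far commoner than in closed coding sequence. The core was present within the 150 bp window of 28 coding sites, or 2.83% (1.89 to 4.07), against 6.84% of intron sites, 8.09% of intergenic sites and 5.73% of all shared sites. In coding windows without a peak it was present in 29 of 51817, or 0.0560%. Of the 28 matches, 26 lay in a footprint of both replicates, 25 were wholly coding, and 15 read along the coding strand with 13 on the opposite strand. In introns 89.8% of the matches lay in a footprint of both replicates. The 28 sites had median values of 1.62 and 1.32, against 0.685 and 0.760 for the coding sites without a core. The highest was the Epg5 site of exon 32, and the gene held another core site with 1.48 as the geometric mean of its values. Next were Dgki, which encodes a diacylglycerol kinase, with 6.52 and 3.52, Dglucy with 4.42 and 3.57, the kinase gene Lrrk1 with 4.62 and 3.33, and Tecpr2, an autophagy gene, with 3.49 and 3.99. Replicate 1 was the higher library at 4 of these 5, and replicate 2 at Tecpr2. The Lrrk1, Dglucy, Dgki and Dst cores stand in capitals in the sequences above.

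Among shorter motifs the E-box CAGCTG, a site of basic helix-loop-helix factors such as the myogenic regulators, was the most frequent. It was present at 290 coding sites, or 29.4% (26.5 to 32.3), against 24.7% of intron sites and 12.4% of coding windows without a peak. At equal GC the coding and intron shares were close, with 32.6% (26.9 to 38.6) of coding sites against 29.4% of intron sites at 55 to 60% GC, where 17.7% of coding windows without a peak held it. In all, 53 of the 348 E-box matches, 15.2%, lay in a footprint of both replicates. The short NFI site TTGGCA was present at 17.9% of coding sites, against 19.3% of intron sites and 10.5% of coding windows without a peak. The AP-1 site, TGACTCA or TGAGTCA, was present at 2.23% of coding sites, against 5.08% of intron sites and 1.71% of coding windows without a peak. The MEF2 site was present at 2 coding sites, or 0.202%, against 1.18% of intron sites. The SP/KLF box GGGCGG was present at 10.1% of coding sites, against 7.17% of intron sites and 45.7% of sites within 500 bp of a start, but at 65% GC or more the share was 24.2% at coding sites against 41.7% at intron sites. The other 12 motifs searched were each present at 0 to 8.70% of coding sites. A match says only that the letters are there.

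The host genes were mostly hit once. Of the 839 genes, 734 held 1 site, 83 held 2, 17 held 3 and 5 held 4 or more. Counting every gene with coding bases at the midpoint gave 862 hosts, mostly because 1 site in a shared exon of the clustered protocadherins belongs to 22 genes, and these were 7.43% of the 11605 genes with coding bases over 5 kb from every start. The share of hosts followed coding length, from 2.67% of genes with under 500 such bases to 35.1% of genes with 5000 or more. A promoter was open at 81.2% of hosts and at 76.0% of the genes with no site.

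The muscle lists held 50 sites in 21 genes. Of 26 genes for cytolinkers and the dystrophin complex, 10 were hosts, or 38.5%, with 37 sites, and the median gene of that list had 4.26 kb of such coding sequence. The hosts were Ank3, Dst, Plec, Sntb1, Sptb, Syne1, Syne2, Tln2, Tns1 and Utrn. Of 20 genes of the triad and sarcolemma, 5 were hosts, or 25%, with 7 sites and a median of 0.957 kb: Bin1, Cacnb1, Dysf, Ryr1 and Tmem38a. Of 41 sarcomere genes, 6 were hosts, or 14.6%, with 6 sites on 181 kb of coding sequence, among them Ldb3, Neb, Nrap, Ttn and Xirp2. That was 33.2 sites per Mb in sarcomere genes, against 237 in the cytolinker list, 174 in the triad list and 72.9 over all genes with such sequence, whose median was 0.792 kb. Plec alone gave 16 of the 37 cytolinker sites, in 6 separate regions. Without Plec, a choice made after the data had been seen, the list held 21 sites, or 144 per Mb. The lists were chosen with earlier results of these data known, and the counts are descriptions.

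Dysf, whose product dysferlin repairs the muscle membrane, had the highest site of these lists by the geometric mean of both values, with 2.94 and 4.40 in exon 34. Dst, which encodes the cytolinker dystonin, had 3.57 and 2.84 in exon 56 and 1.83 and 1.23 in exon 39. Nrap, which encodes a nebulin-related anchoring protein, had 2.32 and 2.64 in exon 30. Syne2, which encodes a nesprin of the nuclear envelope, had 2.35 and 1.81 in exon 66. Bin1, a membrane-bending protein of the T-tubule, had 2.15 and 1.85 in exon 7. The midpoint of that site is coding in 1 of the 5 coding transcripts of the gene that span it, and 51.7% of the peak is coding. Ryr1, the calcium release channel of the sarcoplasmic reticulum, held 3 sites, from 0.702 to 1.02 in replicate 1 and from 0.587 to 1.70 in replicate 2. Ttn, the gene of titin, held a single site, with 0.598 and 0.980 in exon 221 of 347. Neb, the gene of nebulin, held one of 0.848 and 0.933 in exon 50 of 157. The sites of Ttn and Neb, the longest sarcomere genes, were thus lower than that of Dysf in both libraries.

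Other lists are set here against the 7.43% of all genes with such sequence that were hosts, and against their median of 0.792 kb and 72.9 sites per Mb. Among developmental factors 5 of 41 genes were hosts, or 12.2%, with a median of 1.09 kb and 75.2 sites per Mb. Zeb1, a zinc finger and homeobox repressor, had 2.67 and 3.41 in exon 2, and Sox6, a repressor of slow fibre genes in muscle, had 1.21 and 2.88 in its last exon and 0.767 and 0.745 in exon 15. Mef2a, a muscle transcription factor, had 0.963 and 0.869, Six4, a homeobox factor of early myogenesis, had 0.408 and 0.575, and Gli3, a Hedgehog pathway factor, had 0.359 and 0.358, each in the last exon. Zeb1 was above the other 4 factors in both libraries. Of 34 chromatin regulators, 8 were hosts, or 23.5%, with a median of 2.77 kb and 125 sites per Mb, the highest 2 being in the methyltransferase gene Kmt2a with 3.92 and 2.77 and the last exon of the remodeller gene Chd7 with 2.89 and 5.54. Of 42 collagen and matrix genes, 7 were hosts, or 16.7%, with a median of 2.87 kb and 56.4 sites per Mb, the highest site being that of the laminin gene Lama5 with 1.91 and 3.11. Of 25 genes of muscle metabolism and signalling, 4 were hosts, or 16%, with a median of 1.61 kb and 144 sites per Mb: the insulin receptor gene Insr and 3 genes of the calcineurin-dependent NFAT family, Nfatc1, Nfatc2 and Nfatc3. Of 9 clock genes 1, Cry2, was a host. Of 250 genes named Zfp, 16 were hosts, or 6.40%, with a median of 1.55 kb and 47.3 sites per Mb, and of 155 olfactory and vomeronasal receptor genes 0 were.

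Plec and Syne1 held the most sites, in different ways. Plec encodes plectin, which ties intermediate filaments to the Z-disc and the membrane. Its 16 sites lay in the last 2 of 33 exons, between codons 1540 and 4417 of 4691, and 6282 to 15046 bp from the nearest start. They were all low, from 0.315 to 0.538 in replicate 1 and from 0.252 to 0.669 in replicate 2. Many of these peaks overlapped each other, so that they formed 6 separate regions and met 10 peaks of replicate 2. Listed bases of both libraries ran for 2484 bp, from exon 32 into its flank, in a stretch that met 7 of the 16 sites. The GC content of the Plec sites was 57.3 to 74.7%, and 12 were in the stricter set of both libraries.

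Syne1 encodes nesprin-1, which links muscle nuclei to the cytoskeleton. Its 9 sites lay in 9 exons out of 146, all separate, and spread from codon 2167 to codon 7630 of 8799. Exon 55 had the highest, with 2.69 and 4.63. Values were at or above 1 in both libraries in exons 43 (2.67 and 2.04), 47 (1.17 and 2.38), 77 (1.61 and 1.08) and 125 (1.73 and 2.54) as well. Exons 60, 61 and 89 stayed under 0.5 in both, and exon 118 had 0.408 and 1.80. The sites of exons 43, 47, 55, 77 and 125 were above every Plec site in both libraries and were the 5 found in the stricter set of both. Ccdc187, the centrosome gene Cep250 and the spectrin gene Sptbn4 held 4 sites each, with values up to 0.854 and 1.31, 1.72 and 2.25, and 3.23 and 3.25. The 4 Cep250 peaks formed 3 separate regions.

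**Figure D5:**
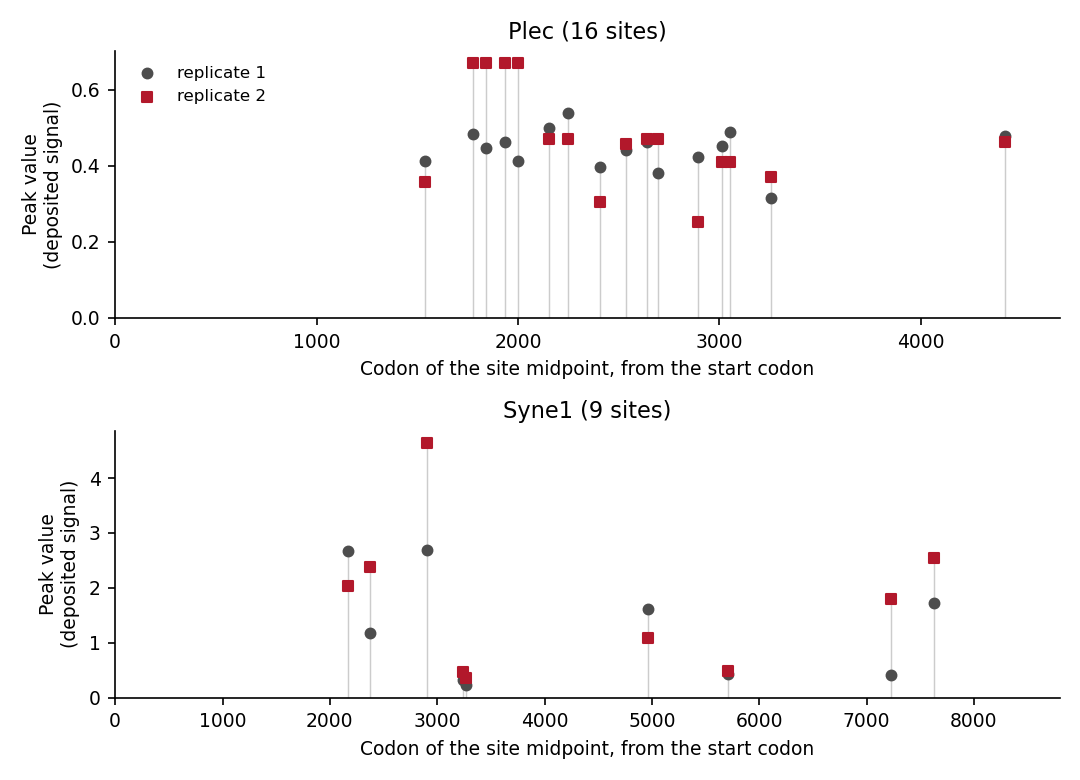
Deposited peak value of each Plec site (upper panel, 16 sites) and each Syne1 site (lower panel, 9 sites) in replicate 1 (circles) and replicate 2 (squares), against the codon at the site midpoint. Plec sites crowd between codons 1540 and 3259 below 0.67, with 1 more at codon 4417, and Syne1 sites are spread out and reach 4.63.

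Coding peaks of replicate 1 were found again less often than its intron peaks, and coding peaks of replicate 2 slightly more often. The values of the 988 sites had a rank correlation of 0.848 across sites between the replicates, which share the sites but not the libraries. Replicate 2 was higher at 54.9% of them, with a median log2 ratio of replicate 2 over replicate 1 of 0.07, against 0.25 for the other sites over 5 kb. The replicate 2 peak started or ended elsewhere at 872 of the 988 sites. Where several such peaks met a site the highest was taken, which leans the ratio toward replicate 2. Of the coding peaks of replicate 1 alone, 63.3% of 1562 met a peak of replicate 2, against 79.4% of intron peaks. Of those of replicate 2, 59.1% of 1644 met a peak of replicate 1, against 56.2% of intron peaks. For values from 0.4 to 0.6 the share found again was 59.1% of 423 coding peaks against 77.5% of intron peaks in replicate 1, and 53.4% of 380 against 38.3% in replicate 2. At values of 1 or more nearly all were found again, 99.1% of coding and 99.1% of intron peaks of replicate 1, and 95.3% against 93.5% in replicate 2. The stricter set of both libraries held 487 of the 988, or 49.3% (46.1 to 52.5), against 55.6% of the other sites over 5 kb and 64.3% of all shared sites. With an overlap of at least 50% of each peak these shares were 56.4% of coding sites and 61.9% of the others.

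The Syne1 site in exon 118 was farthest apart on the side of replicate 2, with 0.408 in replicate 1 and 1.80 in replicate 2. Nanog, a pluripotency factor gene, had 0.353 and 1.15 in its last exon, and Gm5105 had 0.555 and 1.79. On the side of replicate 1 were Pcnx2 with 1.62 and 0.581, the RNA-binding protein gene Zc3h13 with 0.827 and 0.311, and Crocc2 with 2.13 and 0.863. Nearest to the 5 kb bound were sites in the ubiquitin ligase gene Smurf1 (2.30 and 4.04, at 5015 bp) and in C77080 (0.865 and 1.34, at 5028 bp). Just short of it, and not counted, were coding sites in Epn3 (1.41 and 1.20, at 4992 bp) and in the homeobox gene Lhx2 (1.10 and 0.822, at 4991 bp).

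Repeats and copies played little part in the set. At least 50% of the peak was soft-masked as repeat at 3 coding sites, or 0.304%, against 3.70% of the other sites over 5 kb and 2.78% of all shared sites. Another place in the genome matched at 95% identity over 90% of the peak at 13 sites, or 1.32%, whose reads may be shared with that place. The highest of them was in Clca3b, with 4.81 and 2.35, whose copy is on the same chromosome.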

How the data were processed

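Open chromatin was measured by DNase-seq in 2 libraries of 1 group, and the authors called peaks, footprints and a per-base FDR in each separately from alignments to mm10, per the deposited sample notes. The aligner and the callers were not given in the sources used here. Peak values as deposited are a signal that the authors scaled to library depth: 100% of the values were whole multiples of 1 step per library, within 0.05 of a step, of 0.00544 in replicate 1 and 0.00587 in replicate 2. The deposited per-base files give an FDR (false discovery rate) and list only bases under 0.05. The footprint files as deposited by the authors carry 0.01 on every line, so only positions were used. Reads of the CAST copy may map less readily to this reference, which was not tested.

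Of the 2 deposited peak sets of each library, the wider one was used, and the stricter one is named where it was. Peaks were classed by their midpoint with GENCODE M21, and sequence, soft-masking and GC came from the GRCm38 assembly of RefSeq, in 150 bp around the midpoint. The CpG ratio is the observed number of CpG over that expected from the C and G present. Coding windows without a peak were 150 bp in segments of at least 100 bp. Densities divide sites by the bases of each class over 5 kb from every start of any transcript. Copies were sought with blastn 2.17.0, and the rest was computed with Python 3.11.15, numpy 2.4.6, pandas 2.3.3, scipy 1.17.1 and matplotlib 3.10.9. The steps were tested on simulated data. Intervals are exact 95% binomial or Poisson intervals and cover counting error only, since copies made by PCR cannot be told from separate molecules. Peaks of 1 library can overlap each other: 30 of the 988 coding sites did so, leaving 969 separate regions.

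The 18 motifs were searched on both strands: the CTCF core, the MEF2 site, the CArG box, the NRF1 site, the EBF site and the long NFI site, which can hold the short one, and, by letters, CAGCTG (E-box), TTGGCA (short NFI site), TGACTCA or TGAGTCA (AP-1), TGACGTCA (CRE), GGAATG (TEAD), TGTGGT (RUNX), CCGGAAGT (ETS), GGGCGG (SP/KLF), TCAGGTTTC (the site of sine oculis homeobox factors), AAGATGGC (YY1), TCAAGGTCA (ERR) and TGATTTAT (HOX/PBX). The sites and the 11 gene lists were chosen with earlier results of these data known. The named sites are the 12 highest, those of genes with at least 4, the 10 highest of the muscle lists and 6 of the developmental list. Also named are the 5 with most footprints, the 5 highest with a CTCF core in footprints and the 3 farthest apart between replicates on each side. The rest are the 3 lowest, those next to the 5 kb bound and the 3 in the exons with most coding bases. The other list members with values in the text were chosen after their values were seen. Alternatives changed the distance, overlap, peak set, coding intervals, placement, annotated starts, windows, repeats and the replicate. No test was made, since sites of 1 library are not replicates. One of the named sites is not reported here.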

Additional observations from a re-analysis of the deposited data

How the results depend on the processing

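Set against the other sites away from starts under the same settings, a comparison added after the data had been seen, coding sites had fewer footprints and CTCF cores and higher GC and CpG ratios in all 6 settings run for both, but their median in replicate 1 was the higher one over 2 kb (0.767 against 0.761) and with the stricter sets (1.19 against 1.17). The number of coding sites was 1585 over 2 kb and 559 over 10 kb from every start, 480 with the stricter peak sets (35.6 per Mb), and 1562 to 1644 with 1 replicate left out (116 to 122 per Mb), because no overlap is then asked. Counting overlapping sites as 1 region gave 71.8 per Mb. The median value of replicate 1 was 0.767 over 2 kb, 0.791 with an overlap of at least 50% of each peak, 1.19 with the stricter sets and 0.533 without replicate 2. That of replicate 2 was 0.828 over 2 kb, 0.710 over 10 kb, 0.880 with 50% overlap, 1.29 with the stricter sets and 0.558 without replicate 1. With 50% overlap, 56.4% were in both stricter sets and 85.9% had a footprint in both libraries, and the median of listed bases in replicate 2 was 180. With the stricter sets these were 100% by construction, 91.5% and 180, GC was 59.3%, the CpG ratio 0.455 and the CTCF share 4.79%. With 1 replicate left out, 40.6 to 47.7% were in the stricter set of the replicate kept, which is not the share in both. Median GC was 60% over 2 kb, 58% over 10 kb and 58 to 58.7% with 1 replicate left out. Listed bases of replicate 1 were 160 without replicate 2. The shares of repeats and of copies were 0 and 0 when such sites were left out, by construction. The ratios to intron and intergenic rates of the same GC, added after the data had been seen, were 0.529 and 0.444 without soft-masked bases, 0.637 and 0.663 with the stricter sets, 0.796 to 0.946 and 0.877 to 0.949 with 1 replicate left out, and 0.721 and 0.772 in GC classes of 2 points. No paired analysis was possible because there is 1 group. The causes of these shifts were not tested apart from those given by construction. Depth limits the weakest sites, which rest on 29 and 20 tags, and 2 libraries limit every statement on spread.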
